A study of Mus musculus with 26 samples.

Results

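The regions described here are 694 stretches of chromatin of at least 2000 bp that carried the active histone mark H3K27ac in permissive supporting cells. They had no listed peak in nonpermissive or control supporting cells (groups defined below). They were found by merging the deposited H3K27ac peaks of 6 libraries wherever they overlapped by 1 bp or more on the autosomes and X, which gave 232378 merged regions, 12169 of them 2000 bp or wider. A merged region was kept when both permissive libraries and none of the 4 nonpermissive and control libraries had a peak in it. These H3K27ac calls chose the domains, so every H3K27ac value below is a description without a test, whereas chromatin accessibility and RNA were measured in other libraries. The number of domains depended on single libraries: it was 0 without permissive library 1, 1107 without permissive library 2 and 1091 without nonpermissive library 1.

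The cells came from mouse cochleae explanted at postnatal day 1 and cultured with the gamma-secretase inhibitor DAPT, which blocks Notch receptor cleavage, or with its solvent DMSO. At 48 h, permissive cells were DAPT-treated cells positive both for the supporting-cell lineage reporter Lfng-CreER/TdT (also written Lfng-CreET/TdT in the labels) and for Atoh1-GFP. Nonpermissive cells were DAPT-treated and control cells DMSO-treated, and both were sorted on the TdT reporter alone. Each of these groups had 2 H3K27ac CUT&RUN and 2 ATAC-seq libraries, and RNA-seq was available for 3 permissive, 3 nonpermissive and 2 control samples. At 24 h, RNA was taken from all Lfng-GFP-positive supporting cells, in 3 DAPT and 3 DMSO samples, without separation by Atoh1. The labels do not say that replicates came from separate animals, so a p-value here speaks only to how far these samples spread. Since Atoh1-GFP was part of the sort, Atoh1 RNA at 48 h is a check of the gate, and a difference between the permissive and other cells is one between sorted populations. Inducible Cre marks the cells that expressed Lfng when recombination occurred.

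H3K27ac marks active promoters and enhancers, and long stretches of it are often found at genes that define a cell type. Supporting cells and hair cells share a progenitor in the cochlea, where Notch signalling from hair cells represses the transcription factor Atoh1 in their neighbours. When Notch is blocked in the newborn cochlea, some supporting cells switch on Atoh1 and the genes of hair cells.

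1 domain held the hairpins of 2 of the 3 microRNAs of the cluster that is expressed in sensory hair cells and in which mutations of miR-96 cause hearing loss. It lay at chr6:30168465-30171816 in mm10 and contained Mir96 and Mir183, and Mir182 lay 2473 bp outside it. The mature 5p sequences are shown from RefSeq (GRCm38.p6, minus strand), with the seed, bases 2 to 8, in capitals, to name the products of the part of the cluster that the domain covers and of the part that it leaves out.
miR-96-5p: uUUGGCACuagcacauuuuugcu
miR-183-5p: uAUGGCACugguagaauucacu
miR-182-5p: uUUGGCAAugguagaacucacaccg
No pair of these 3 seeds was identical. The RNA libraries here do not measure mature microRNAs.

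The domains held 45 promoter windows of RefSeq genes in full, belonging to 39 genes, each window running from 250 bases before a start to 50 after it. The 6 windows below were chosen after their values were seen, to show promoters of genes that are taken up again with their RNA. The first 4 belong to genes whose RNA was higher in permissive cells and hold a searched motif, written in capitals: the E-box core CAGCTG, or CAGATG, which reads CATCTG on the other strand, the kind of site that Atoh1 and related basic helix-loop-helix factors bind, or TAATTAAT, which reads ATTAATTA on the other strand, the kind that POU4 and homeodomain factors bind. Nhlh1 is at chr1:172057547-172057846 (minus strand), Scn11a at chr9:119825407-119825706 (minus strand), Myo7a at chr7:98119444-98119743 (minus strand) and Grxcr1 at chr5:68031585-68031884 (plus strand).
Nhlh1: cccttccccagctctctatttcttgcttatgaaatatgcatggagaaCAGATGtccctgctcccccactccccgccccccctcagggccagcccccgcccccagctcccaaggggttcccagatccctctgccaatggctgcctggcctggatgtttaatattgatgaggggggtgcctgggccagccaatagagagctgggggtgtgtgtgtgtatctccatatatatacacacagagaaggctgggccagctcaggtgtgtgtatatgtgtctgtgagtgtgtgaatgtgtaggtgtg
Scn11a: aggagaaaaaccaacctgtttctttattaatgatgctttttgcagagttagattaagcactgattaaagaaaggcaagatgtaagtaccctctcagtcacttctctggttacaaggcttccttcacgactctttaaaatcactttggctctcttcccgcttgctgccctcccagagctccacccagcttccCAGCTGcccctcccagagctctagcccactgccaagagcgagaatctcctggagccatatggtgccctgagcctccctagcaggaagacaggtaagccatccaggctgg
Myo7a: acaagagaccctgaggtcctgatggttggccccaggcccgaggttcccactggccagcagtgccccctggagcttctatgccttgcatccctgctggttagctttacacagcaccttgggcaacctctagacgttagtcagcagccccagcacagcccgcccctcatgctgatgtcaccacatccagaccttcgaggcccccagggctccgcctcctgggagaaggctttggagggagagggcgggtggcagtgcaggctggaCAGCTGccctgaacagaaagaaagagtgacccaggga
Grxcr1: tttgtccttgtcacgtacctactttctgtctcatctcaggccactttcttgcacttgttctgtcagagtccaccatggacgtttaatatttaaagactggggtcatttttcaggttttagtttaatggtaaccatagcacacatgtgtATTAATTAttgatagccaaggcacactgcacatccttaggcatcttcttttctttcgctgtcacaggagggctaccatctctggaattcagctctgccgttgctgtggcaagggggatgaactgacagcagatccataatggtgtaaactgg
The other two hold neither kind of motif: Neurod6 at chr6:55681214-55681513 (minus strand), whose RNA was higher, and one of the annotated starts of Ctbp2 at chr7:133015198-133015497 (minus strand), whose RNA was not.
Neurod6: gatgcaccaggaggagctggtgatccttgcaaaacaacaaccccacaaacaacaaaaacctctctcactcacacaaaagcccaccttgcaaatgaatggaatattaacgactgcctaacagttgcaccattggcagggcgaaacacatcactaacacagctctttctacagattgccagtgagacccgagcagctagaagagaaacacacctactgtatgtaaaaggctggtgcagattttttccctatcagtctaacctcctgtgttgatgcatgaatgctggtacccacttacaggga
Ctbp2: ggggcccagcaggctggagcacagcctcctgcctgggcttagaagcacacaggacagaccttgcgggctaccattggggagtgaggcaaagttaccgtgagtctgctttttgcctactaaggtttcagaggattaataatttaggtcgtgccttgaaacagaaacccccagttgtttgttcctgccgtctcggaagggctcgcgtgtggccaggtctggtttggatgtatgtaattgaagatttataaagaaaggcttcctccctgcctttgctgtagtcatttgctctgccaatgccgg

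On both strands, 21 of the 45 windows held CAGCTG or CAGATG, against 10043 of all 32851 RefSeq promoter windows of the same length. CAGCTG was in 24.4% of the 45 windows and 16.3% of all windows, and CAGATG in 24.4% and 17.2%. TAATTAAT was in 2 of the 45, Grxcr1 and Zbtb38 (4.44%, against 0.85% of all). The other motifs searched were the GFI1 motif AATCNNNGC (6.67% of the 45 and 10.3% of all), the SOX motif ACAAAG (11.1% and 18.7%), the AP-1 motif TGANTCA (4.44% and 7.81%), the TEAD motif GGAATG (4.44% and 14.7%), and the short RFX motif GTTGCCA (0% and 4.38%), which also lies within the full palindromic RFX site (0% and 0.02%). These are matches of letters and say nothing of binding.

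The 2 permissive libraries saw the domains in different ways. In permissive library 1 a single peak spanned 570 of the 694 domains (82.1%), and 662 of its 724 peaks in domains were 2000 bp or wider. In permissive library 2 the domains held 1111 peaks with a median width of 359 bp, none of them as wide as 2000 bp, and these covered a median of 21.4% of a domain. The difference was general: 5865 of 114527 peaks were 2000 bp or wider in permissive library 1 and 36 of 72280 in permissive library 2, against 5847 of 93854 and 380 of 46148 in the nonpermissive libraries and 186 of 57698 and 198 of 55254 in the control libraries. The width of the domains is therefore the width seen in 1 library, while the second library places narrower peaks inside them. Among merged regions of 2000 bp or more, 441 had a peak only in permissive library 1, 0 only in permissive library 2, and 52 only in nonpermissive library 1. Another 23 had peaks in both nonpermissive libraries and no other, and 0 had them in the control libraries alone. The peak names written inside the file of nonpermissive replicate 1 carry the number 2, and the sample labels were followed here.

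The deposited fold enrichment of the strongest peak, the authors' own value, had a median of 13.2 in permissive library 1 (range 3.97 to 44.7) and 3.98 in permissive library 2 (2.39 to 10.4). It was higher in library 1 in 693 of 694 domains. In library 2 it took 11 distinct values with a median step of 0.80, so that small differences between domains there are not resolved, and 426 domains (61.4%) had a peak with q under 0.05 in that library, against all 694 in library 1. The summits of the 2 libraries lay within 500 bp of each other in 474 domains (68.3%).

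**Figure D1:**
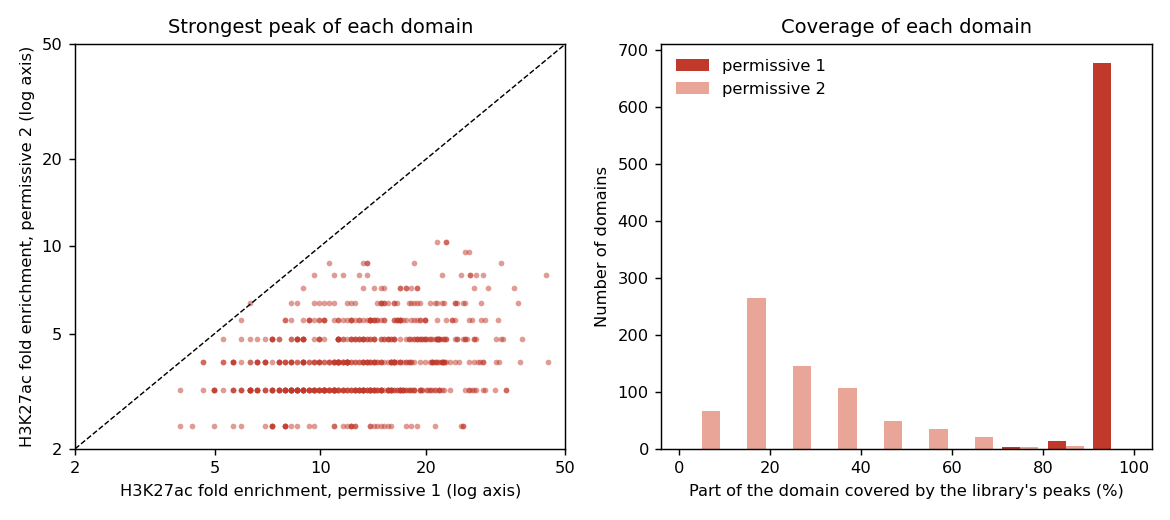
Left, deposited H3K27ac fold enrichment of the strongest peak of each of the 694 domains in permissive library 1 (horizontal) and permissive library 2 (vertical), both on log axes, with a dashed line of equality; right, number of domains by the percentage of the domain that each library's peaks cover. All domains but 1 lie below the line, and coverage is near complete in library 1 and at a median of 21.4% in library 2.

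Domain width had a median of 2696.5 bp and ranged from 2002 to 11063 bp, and 103 domains (14.8%) were 4 kb or wider. There were 61 domains in the first 100 bp of width above the minimum and 67 otherwise equal regions in the 100 bp below it. The narrowest domain, at chr10:77006660-77008661, was 2002 bp wide, and a region left out at chr13:59625953-59627951 was 1999 bp wide. The nearest H3K27ac peak of any nonpermissive or control library was a median of 8345.5 bp away. It was within 1 kb for 59 domains (8.5%), and 309 domains (44.5%) had none within 10 kb.

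Most domains lay inside genes or between them rather than at starts. A start within 1 kb was found for 55 domains (7.93%), 410 (59.1%) overlapped a gene body, and 229 (33.0%) were intergenic. Of the 5032 merged regions of the same minimum width with a peak in all 6 libraries, 49.5% were at a start. The 5261 permissive-only regions under 2000 bp resembled the domains in place, with 7.77% at a start. Domains were on every chromosome analysed, with 62 on chromosome 2, 57 on chromosome 1 and 3 on X, and 157 (22.6%) had another domain within 50 kb. The domains and the narrow regions together made up 2.56% of all merged H3K27ac regions.

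The widest domain, at chr1:129457304-129468366, was 11063 bp and lay in Thsd7b. Other wide domains were 8170 bp at chr8:36008197-36016366, whose nearest start was that of Prag1, a regulator of the cytoskeleton, at 78461 bp, and 8085 bp at chr6:40013853-40021937 near Tmem178b. The domain at chr6:64818685-64826162, 7478 bp wide, was linked to Atoh1, the basic helix-loop-helix factor required for hair cells to form, and had folds of 36.7 in permissive library 1 and 6.38 in permissive library 2. Its near edge was 89.6 kb downstream of the Atoh1 start. The second Atoh1 domain, 3728 bp at chr6:64740661-64744388, began 11.5 kb downstream and had folds of 10.9 and 3.19.

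The Atoh1 locus also shows what the rule leaves out. Within 120 kb of the start, the H3K27ac files listed 38 and 16 peaks in the permissive libraries, 7 and 0 in the nonpermissive libraries and 0 in each control library. In permissive library 1 a peak with a fold of 31.4 ran from -2.72 to 6.81 kb over the gene itself, and another with a fold of 50.6 from 66.9 to 74.2 kb downstream. Neither is a domain, because nonpermissive library 1 had narrow peaks there, with folds of 3.84 at the gene and 5.32 downstream. ATAC peaks in the same window numbered 16 and 29 in the permissive libraries, 14 and 17 in the nonpermissive libraries and 12 and 13 in the control libraries.

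**Figure D2:**
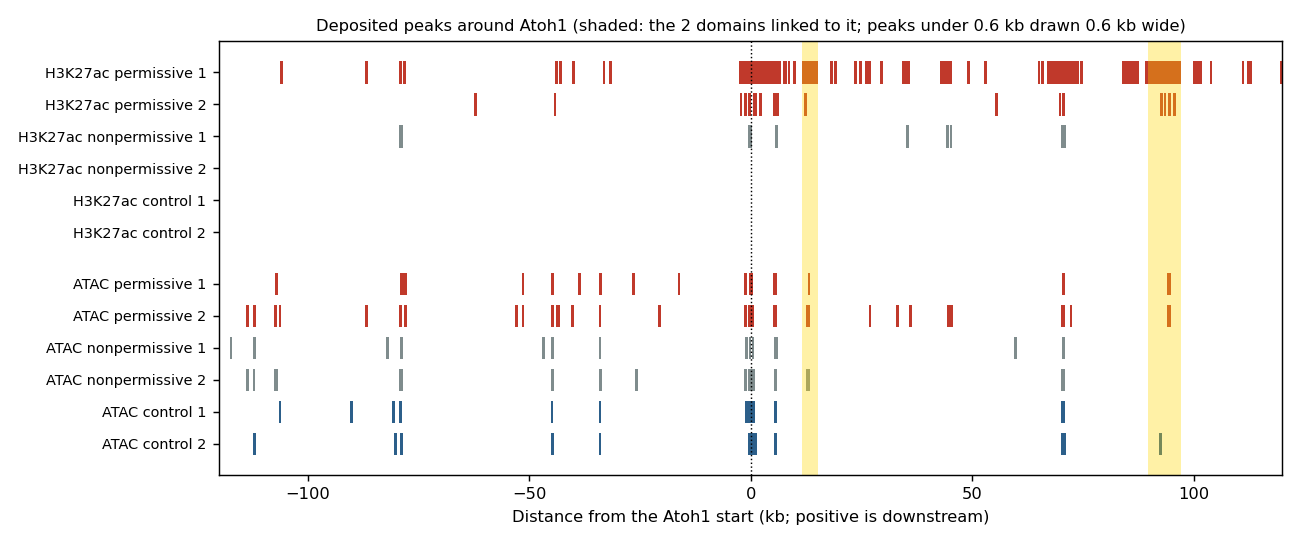
Deposited H3K27ac and ATAC peaks of each of the 12 libraries within 120 kb of the Atoh1 start (horizontal axis, kb, positive downstream; dotted line, start), with permissive libraries above nonpermissive and control libraries; the 2 shaded spans are the domains. H3K27ac peaks number 38 and 16 in the permissive libraries, 7 and 0 in the nonpermissive ones and 0 in the controls, whereas every ATAC library has at least 12.

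Accessible chromatin, measured by ATAC-seq in libraries the rule did not use, was found in far more of the domains in permissive cells. An ATAC peak overlapped 82.3% and 96.5% of the domains in the 2 permissive libraries, 29.0% and 36.2% in the nonpermissive libraries and 33.3% and 26.8% in the control libraries. Both permissive libraries lay above all 4 others, and nonpermissive and control libraries overlapped. The mean was 89.4% ± 10.1 (SD, n = 2) in permissive and 31.3% ± 4.22 (SD, n = 4) in the other libraries, a difference of 58.1 percentage points. The two-sided exact permutation p, taken as 2 times the one-sided p, was 0.1333. This is the smallest that 2 against 4 libraries can give in that form of the test. The peak lists held 86988 and 170910 peaks in the permissive, 110121 and 126982 in the nonpermissive and 129676 and 105346 in the control libraries. Within each group the library with the longer list had the larger share, while the shortest list was that of permissive library 1. How much list length adds to these shares was not tested. Per base, 1.07% and 0.817% of the sequence covered by ATAC peaks lay in domains in the permissive libraries, 0.191% and 0.236% in the nonpermissive and 0.211% and 0.185% in the control libraries.

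The 2 sets of H3K27ac regions most like the domains gave other shares, which were not adjusted for width. Median width was 802 bp in the narrow and 2930.5 bp in the broad set, against 2696.5 bp in the domains. Of the narrow permissive-only regions, 44.3% and 71.5% held an ATAC peak in the permissive libraries, against 21.9% and 32.3% in the nonpermissive and 30.7% and 22.8% in the control libraries. Of the broad regions with H3K27ac in all 6 libraries, between 86.9% and 97.8% held one in every ATAC library.

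**Figure D3:**
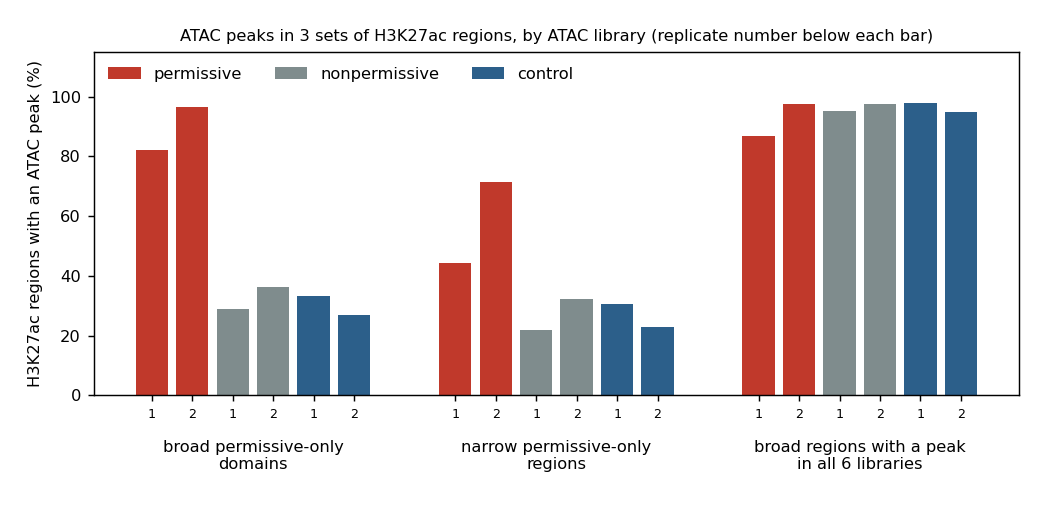
Percentage of H3K27ac regions that hold an ATAC peak, for the 694 domains, the 5261 narrow permissive-only regions and the 5032 broad regions with a peak in all 6 libraries; each bar is 1 ATAC library, coloured by group, with its replicate number below. In the domains the permissive bars reach 82.3% and 96.5% and the other 4 stay between 26.8% and 36.2%.

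After merging ATAC peaks over their 6 libraries, the domains held 1181 ATAC regions, of which 354 (30.0%) had a peak in both permissive libraries and no other. Over the whole table that share was 2.4% of 361941 regions. Within the domains, 1 region was found in both nonpermissive libraries only and 2 in both control libraries only, against 2084 and 2676 of all 361941 regions. A permissive-only ATAC region was present in 334 domains (48.1%), in 16.0% of the narrow permissive-only regions and in 4.55% of the broad regions shared by all 6 libraries. These shares too were not adjusted for the smaller width of the narrow regions. In 232 domains (33.4%) both permissive libraries and no other had any ATAC peak. The remaining domains were not all open in permissive cells alone. Both permissive libraries and 1, 2, 3 or all 4 of the other libraries had an ATAC peak in 124, 79, 47 and 89 domains. A merged ATAC region present in all 6 libraries lay in 71 domains (10.2%), and 18 held no ATAC peak at all. Among domains with an ATAC peak in the library concerned, the strongest peak had a median fold of 3.97 and 9.81 in the permissive libraries. It was 2.74 and 3.74 in the nonpermissive and 3.71 and 3.30 in the control libraries, where most domains had no peak and were left out. Medians over all single peaks of those libraries were 2.71 and 3.77, 2.58 and 3.54, and 3.55 and 3.12. Those are not medians of the strongest peak per region, so they are not directly comparable with the values in domains.

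Single domains show how this looked at known genes. In the distal Atoh1 domain, the ATAC region chr6:64823076-64823864 had folds of 7.51 and 17.63 in the permissive libraries and no peak in the other 4. In the proximal Atoh1 domain, chr6:64741865-64742367 had 2.2 and 10.65 in the permissive libraries, 3.25 in nonpermissive library 2 and none in the remaining 3. The domain 843 bp from the start of Barhl1, a homeobox factor needed to maintain hair cells, held chr2:28917867-28918491, with 3.44 and 6.79 in permissive libraries and none elsewhere. A domain in the body of Srrm4, a splicing regulator of neurons and hair cells, held chr5:116525272-116525909, with 7.52 and 15.54 in permissive libraries and none elsewhere. The domain at its start held chr5:116591299-116592340, with 3.36 and 6.84 in permissive, 2.58 and 5.92 in nonpermissive and 5.43 and 3.81 in control libraries. In the domain linked to Lhx3, chr2:26183842-26184421 was also open in every library (5.49 and 10.5, 2.42 and 4.0, and 4.99 and 3.74 in the same order). The first Pou4f3 domain held chr18:42382375-42382976, with 4.66 and 6.57 in permissive libraries only. In the second, chr18:42395090-42395490 had 3.06 and 2.95 in nonpermissive libraries, 3.25 in control library 1 and no permissive peak. Another region there, chr18:42398634-42398880, had 3.03 in permissive library 2 alone. In the microRNA domain, chr6:30169002-30169691 was open in both permissive libraries only, with folds of 3.29 and 3.53. H3K27ac folds there were 13.2 and 3.98, and a nonpermissive H3K27ac peak lay only 357 bp from its edge. The nearest start was that of Rncr4, a noncoding RNA of the same locus, named here after its values were seen, which had 3.92, 1.67 and 4.85 CPM in permissive, 0.279, 0 and 0 in nonpermissive and 0.374 and 0 in control samples (edgeR adjusted p = 0.124 against control). At 24 h it had 44.8, 52.5 and 51.8 CPM with DAPT and 8.77, 13.1 and 16.8 with DMSO (log2 fold change 1.95 ± 0.21, edgeR adjusted p = 0.000216).

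Of the 45 promoter windows inside domains, 30 overlapped an ATAC peak in both permissive libraries, and 14 overlapped none in any nonpermissive or control library. The ATAC region at the Grxcr1 window had folds of 3.38 and 10.28 in the permissive libraries and none elsewhere. At Nhlh1 the folds were 5.1 and 6.48 in the permissive libraries and 3.05 in control library 2. At Scn11a they were 6.85 and 16.93 in the permissive libraries, 5.61 in nonpermissive library 2 and 2.95 in control library 1. The Myo7a region had 2.03 and 7.47 in permissive and 2.97 in nonpermissive library 2, and the Neurod6 region 4.37 and 10.96 in permissive and 4.48 in nonpermissive library 2.

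For RNA, each domain was linked to the gene with the nearest start within 100 kb, which is a link by distance and not a measured contact. This linked 526 domains (75.8%) to 455 genes and left 168 domains without a gene. The 48 h libraries held 2165340 to 4896371 counts and the 24 h libraries 10666000 to 13158859. Values are in CPM, the count scaled to a common library size, and are compared between samples and not between genes. In 48 h libraries the summed level of 10 hair cell markers was 5710 to 7560 CPM in permissive, 304 to 369 in nonpermissive and 153 to 280 in control samples, and that of 11 supporting cell markers was 1030 to 1180, 6520 to 11800 and 9280 to 13200 CPM. Blood and macrophage markers summed to 60.8 to 250 CPM in permissive, 19.4 to 79.0 in nonpermissive and 37.6 to 53.1 in control samples, with 4 to 7 of the 9 at 0 in each permissive library. Mesenchyme markers summed to 230 to 702, 1400 to 3420 and 626 to 2820 CPM in the same order. Schwann and satellite glia markers summed to 83.6 to 210 CPM in permissive, 445 to 711 in nonpermissive and 474 to 852 in control samples, melanocyte and stria markers to 34.4 to 88.5, 213 to 371 and 258 to 507, endothelial markers to 53.1 to 114, 93.7 to 237 and 20.6 to 26.5, and spiral ganglion neuron markers to 313 to 481, 328 to 778 and 539 to 996. The part of these differences in the results was not tested, and in such sorted bulk samples fewer cells of a type and less RNA per cell cannot be told apart.

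Genes linked to domains were higher in permissive cells far more often than genes in general. Of the 455 genes, 338 passed the filter on low counts at 48 h, and edgeR's quasi-likelihood test with Benjamini-Hochberg adjustment over all 13411 genes tested called 139 of them (41.1%) higher in permissive than in control cells, where 5.72% of all genes tested were called higher. It called 1 lower, Sh3pxd2b, against 7.28% of all genes. The median log2 fold change was 1.66 for linked genes and 0.06 for all genes tested, and it was 1.66 also with the 22 genes at 0 in both control libraries put at their lower bound. Against nonpermissive cells, 151 of the 338 were higher and 2, Sh3pxd2b and Mab21l1, lower, where 6.78% and 6.35% of all genes were called. The median was 1.58, against 0.00 for all genes, and 1.56 with genes at 0 at their bound. The counts of lower genes rest on single libraries: the first was 0 without permissive sample 2 and 4 without permissive sample 1, and the second 0 without permissive sample 2 and 1 without any 1 nonpermissive sample. The 2 comparisons share the permissive samples. Genes that passed only because they are high in permissive cells could hardly have been called lower.

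Few of these genes were called between nonpermissive and control cells. In edgeR's quasi-likelihood test with Benjamini-Hochberg adjustment, 4 of 338 were higher and 1 lower, where 0.0671% and 0.127% of all genes were called. The 4 were Atoh1 (log2 fold change 3.95, adjusted p = 0.0127), the sodium channel gene Scn11a (4.86, 0.0267), Tmem255b (5.02, 0.0494) and Tnfaip8l1 (6.35, 0.0391), of which all but Atoh1 had only a few counts in control samples, so that their fitted values depend on the model's prior. The gene called lower was Dpysl4, with a log2 fold change of -3.01 (adjusted p = 0.0199). The first count was 0 without either control sample or without nonpermissive sample 3, and the second 0 without control sample 2 or any 1 nonpermissive sample.

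At 24 h, in supporting cells not separated by Atoh1, 349 linked genes were tested. With the same edgeR test and adjustment, 164 were higher with DAPT than with DMSO and 17 lower, where 11.5% and 14.2% of all 15174 genes tested were called, and the second count was 11 without DAPT sample 1. The median log2 fold change was 0.57, against 0.01 for all genes. The 10 hair cell markers summed to 4540 to 7600 CPM with DAPT and 1800 to 2190 CPM with DMSO in these libraries. Hair cell marker RNA was thus present in this sort without DAPT too, and its part in the 24 h calls was not tested.

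How near a domain lay to a start went with the share of genes called. Of 41 tested genes with a domain at a start, 32 (78.0%) were higher in permissive than control cells, with a median log2 fold change of 7.12, or 4.79 with the 11 genes at 0 in control put at their bound. Of genes with a domain within 20 kb, 96 of 192 were higher, and of those farther away 43 of 146. Of genes with at least 2 domains, 25 of 49 were higher than in control cells and 34 of 49 higher than in nonpermissive cells. Of genes with 1 domain, these numbers were 114 and 117 of 289. Of genes whose domains held a permissive-only ATAC region, 72 of 166 were higher than in control, and of those without one 67 of 172. For comparison, 355 of 2344 tested genes (15.1%) linked to narrow permissive-only regions and 117 of 3347 (3.5%) linked to broad regions shared by all 6 libraries were higher than in control. Of all genes tested, 5.72% were. A gene linked to regions of more than 1 kind counts in each of these sets. These shares were not tested against each other.

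**Figure D4:**
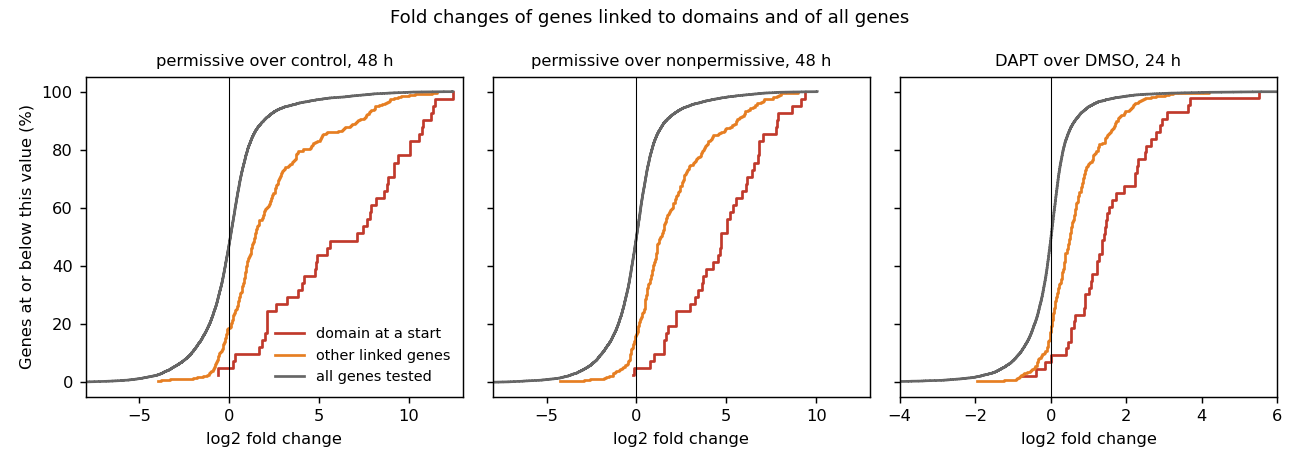
Cumulative percentage of genes (vertical) by fitted log2 fold change (horizontal) for permissive over control and permissive over nonpermissive cells at 48 h and DAPT over DMSO at 24 h, with genes that have a domain at a start, other linked genes and all genes tested as separate lines. The line of all genes crosses 50% near 0, and that of linked genes lies to its right in each panel, with start domains farthest right.

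Among hair cell transcription factors and regulators, 11 of the listed genes had a domain, and 8 of them were higher in permissive than control cells, with none lower, in edgeR's quasi-likelihood test. Over the whole list, 12 of 30 tested genes were higher and 3 lower, where 5.72% and 7.28% of all genes tested were called. The median log2 fold change of the 11 was 7.68, or 7.12 with the 2 genes at 0 in control at their bound. Against nonpermissive cells 9 of the 11 were higher, where 13 of 30 over the whole list were higher and 5 lower and 6.78% of all genes were called higher. At 24 h 9 of the 11 were higher with DAPT, where 16 of 30 over the whole list were higher and 3 lower and 11.5% of all genes were called higher.

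Atoh1 RNA, part of the sort, had 804, 1010 and 635 CPM in permissive, 30.2, 41.1 and 67.2 CPM in nonpermissive and 3.55 and 2.28 CPM in control samples. The 3 groups did not overlap, and nonpermissive cells lay between the other two. The log2 fold change over control was 8.09 ± 0.68 (SE; edgeR adjusted p = 3.17e-05). At 24 h, Atoh1 had 718, 643 and 666 CPM with DAPT and 69.8, 64.0 and 78.9 CPM with DMSO, a log2 fold change of 3.25 ± 0.11 (edgeR adjusted p = 8.05e-07).

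Pou4f3, a POU homeodomain factor that Atoh1 activates and hair cells need to survive, had 2 domains, at chr18:42380771-42384601 and chr18:42395010-42398855. It had 2170, 2850 and 2270 CPM in permissive, 24.6, 42.3 and 44.2 CPM in nonpermissive and 7.29 and 11.4 CPM in control samples. Permissive samples were far above both other groups, which did not overlap each other. The log2 fold change was 8.02 ± 0.63 over control (edgeR adjusted p = 3.17e-05) and 6.04 ± 0.48 over nonpermissive (2.50e-05). With DAPT at 24 h it was 3.03 ± 0.12 (1.39e-06).

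Barhl1 was at 195, 188 and 220 CPM in permissive samples, 2.23, 1.14 and 5.12 CPM in nonpermissive samples and 0 in both control samples. It was thus at least 284-fold higher in permissive than control cells, taking 3 counts per library as the floor. Lhx3, a LIM homeodomain factor of hair cells whose domain lay 21897 bp from its start, had 241, 345 and 186 CPM in permissive, 1.68, 1.14 and 0.96 in nonpermissive and 0 and 1.14 in control samples. In both genes permissive samples stood apart and the other groups were near 0, and the edgeR log2 fold changes over nonpermissive cells were 6.07 (adjusted p = 8.22e-05) and 7.61 (5.41e-05).

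Neurod6 and Nhlh1, basic helix-loop-helix factors best known from developing neurons, were also higher in permissive cells. Neurod6, with 3 domains of which 1 is at its start, had 27.4, 11.7 and 23.9 CPM in permissive samples and 0 in all nonpermissive and control samples, so it was at least 29.6-fold higher than control and at least 17.9-fold higher than nonpermissive. At 24 h it had 42.9, 50.9 and 42.2 CPM with DAPT and 1.32, 0.414 and 1.25 with DMSO, a log2 fold change of 5.52 ± 0.28 (edgeR adjusted p = 4.18e-06). Nhlh1 had 42.1, 9.04 and 13.3 CPM in permissive samples, 0, 0.571 and 0 in nonpermissive and 0 and 0.285 in control samples. Its permissive samples spread widely, and its call against control was lost without control sample 1 (adjusted p = 0.0518).

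Casz1, a zinc finger factor that is not on the list, had 5 domains, the most of any linked gene. It was at 212, 129 and 81.3 CPM in permissive, 8.1, 2.28 and 12.2 in nonpermissive and 0.561 and 0.856 in control samples, with a log2 fold change over control of 7.60 ± 0.91 (edgeR adjusted p = 0.000176). Srrm4 had 381, 350 and 210 CPM in permissive, 4.47, 1.71 and 4.16 in nonpermissive and 0.374 and 2.85 in control samples (7.68 ± 0.84, edgeR adjusted p = 0.000106). In both genes every permissive sample was far above every other. Zfp503, with 3 domains, had a log2 fold change of 4.13 ± 0.84 (edgeR adjusted p = 0.00527), which was no longer called without control sample 1 (0.0573).

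The 3 factors with a domain that were not called against control were Eya4, Zbtb38 and Bcl11a. Eya4, a transcriptional coactivator in which mutations cause deafness, had 168, 60.9 and 60.2 CPM in permissive, 131, 90.8 and 52.2 in nonpermissive and 107 and 45.9 in control samples, with overlap of all groups (log2 fold change over control 0.34, edgeR adjusted p = 0.785). Zbtb38 has a domain at a start, yet had 24.6, 23.1 and 13.7 CPM in permissive, 21.8, 22.8 and 26.2 in nonpermissive and 24.9 and 38.2 in control samples (log2 fold change -0.62, edgeR adjusted p = 0.519). Permissive samples lay just below both control samples, and nonpermissive samples overlapped both groups. Bcl11a had 137, 128 and 63.1 CPM in permissive, 22.6, 20.6 and 12.2 in nonpermissive and 43.2 and 15.1 in control samples. It was higher than in nonpermissive cells (2.57, edgeR adjusted p = 0.00578), and against control its log2 fold change was 1.90 (0.0509), or 2.27 (0.00891) with the replicate number as a block. Gfi1, a factor of hair cells downstream of Atoh1, had no domain although its RNA was at 97.8, 151 and 129 CPM in permissive samples, 1.12, 2.28 and 1.28 in nonpermissive and 0.374 and 0 in control samples.

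**Figure D5:**
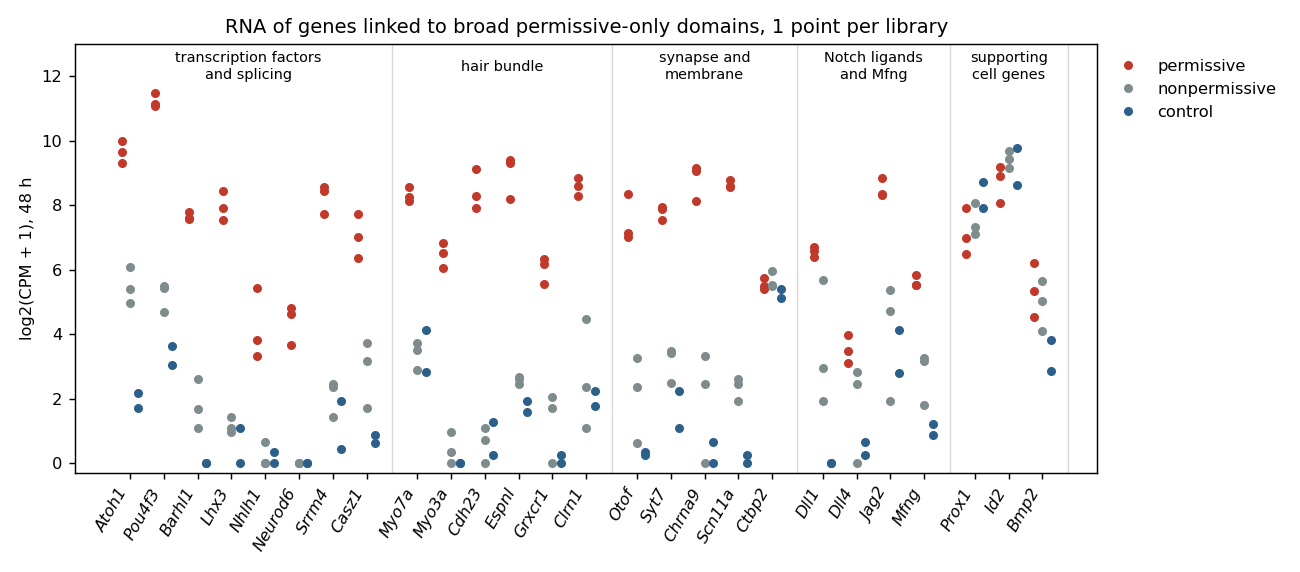
RNA of selected genes linked to domains at 48 h, as log2(CPM + 1) on the vertical axis with 1 point per library (3 permissive, 3 nonpermissive and 2 control), grouped by role. Permissive points stand above the others for most genes, whereas those of Ctbp2, Prox1, Id2 and Bmp2 overlap the nonpermissive points.

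Genes of the hair bundle, the mechanosensory apparatus and the ribbon synapse made up the longest list. Of 27 with a domain, 25 were higher in permissive than control cells (edgeR, median log2 fold change 6.98, or 6.97 with genes at 0 in control at their bound) and none lower. Over the whole list 50 of 68 tested were higher and 3 lower, and over all genes tested 5.72% and 7.28%. Against nonpermissive cells 23 of the 27 were higher, as were 48 of 68 over the whole list and 6.78% of all genes. At 24 h 18 were higher with DAPT, as were 34 of 72 over the whole list and 11.5% of all genes. Myo15, which the list holds under the name Myo15a, was matched by symbol and so is missing from these counts. It has a domain at a start and was called higher in permissive cells than in control and in nonpermissive cells (edgeR).

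Myo7a, the unconventional myosin of stereocilia, had 2 domains, 1 at a start. It had 279, 374 and 305 CPM in permissive, 6.42, 10.3 and 12.2 in nonpermissive and 6.17 and 16.5 in control samples. Nonpermissive and control samples overlapped well below the permissive ones, and the log2 fold change over control was 4.82 ± 0.60 (edgeR adjusted p = 0.000235). At 24 h it was 1.22 ± 0.31 (0.0189), with 430, 579 and 219 CPM under DAPT and 145, 178 and 206 under DMSO, and that call was lost on leaving out DAPT sample 1 (0.0641), DAPT sample 2 (0.0543), DMSO sample 1 (0.0802) or DMSO sample 2 (0.0640).

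Cdh23, the cadherin of the tip link, had 563, 312 and 240 CPM in permissive, 1.12, 0 and 0.64 in nonpermissive and 0.187 and 1.43 in control samples, a log2 fold change over nonpermissive of 9.01 ± 0.79 (edgeR adjusted p = 3.67e-05). Its gene body held 3 domains, but by distance to a start it was credited with 1. Pcdh15, its tip-link partner, was already measurable in the other groups: it had 498, 227 and 370 CPM in permissive, 61.7, 62.8 and 38.1 in nonpermissive and 63.4 and 30.2 in control samples. Its log2 fold change over control was 2.96 ± 0.55 (edgeR adjusted p = 0.00284).

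Espnl, an espin-like actin-bundling protein, had 671, 628 and 293 CPM in permissive, 4.47, 5.14 and 5.44 in nonpermissive and 2.81 and 2.00 in control samples (log2 fold change over control 7.75 ± 0.66, edgeR adjusted p = 3.17e-05). Grxcr1, needed for stereocilia to reach their proper size, had 79.6, 71.6 and 46.5 CPM in permissive, 0, 2.28 and 3.2 in nonpermissive and 0.187 and 0 in control samples. Clrn1, an Usher syndrome gene with 3 domains, had 313, 460 and 388 CPM in permissive, 1.12, 21.1 and 4.16 in nonpermissive and 2.43 and 3.71 in control samples. In all 3 genes the lowest permissive sample was above the highest of the rest by a wide margin. Myo3a, another myosin of stereocilia, was at least 125-fold higher than in control, where it was at 0.

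For synaptic and membrane proteins the pattern was the same with exceptions. Scn11a had 381, 387 and 444 CPM in permissive, 4.47, 2.85 and 5.12 in nonpermissive and 0.187 and 0 in control samples, and at 24 h 74.5, 74.7 and 61.3 CPM with DAPT against 6.03, 3.81 and 6.5 with DMSO. Its log2 fold change was 6.56 over nonpermissive cells (edgeR adjusted p = 2.50e-05) and 3.69 at 24 h (4.70e-06). Chrna9, the acetylcholine receptor subunit of efferent synapses on hair cells, had 279, 537 and 564 CPM in permissive, 0, 9.14 and 4.48 in nonpermissive and 0 and 0.571 in control samples. Both genes have a domain at their start. Syt7, a calcium sensor of vesicle release, had a log2 fold change over control of 6.43 ± 0.69 (edgeR adjusted p = 9.82e-05). Otof, needed for vesicle release at the ribbon synapse, had 328, 141 and 129 CPM in permissive, 0.558, 8.56 and 4.16 in nonpermissive and 0.187 and 0.285 in control samples. At 24 h, in cells not separated by Atoh1, Otof had 1200, 1620 and 385 CPM with DAPT and 521, 706 and 574 with DMSO, which overlapped (0.83 ± 0.42, edgeR adjusted p = 0.183). DAPT sample 3 stood apart, and without it Otof was higher with DAPT (1.24, edgeR adjusted p = 0.000406).

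Ctbp2, which encodes a transcriptional corepressor and, from an alternative start, the ribbon protein RIBEYE, was an exception. Its domain at chr7:133014004-133016177, with H3K27ac folds of 21.8 and 4.78, covered the start whose window is printed above, and an ATAC region at chr7:133015004-133015878 had folds of 3.71 and 7.96 in permissive libraries and none elsewhere. The other RefSeq window of the gene, at chr7:133081811-133082110, had no H3K27ac or ATAC peak in any of the 12 libraries. RNA summed over the gene was 53.2, 41.5 and 43.7 CPM in permissive, 44.7, 44.5 and 61.4 in nonpermissive and 41.1 and 34.0 in control samples. Permissive and nonpermissive samples overlapped, and the 2 control samples lay just below both (log2 fold change over control 0.30 ± 0.46, edgeR adjusted p = 0.752). The gene counts do not separate transcripts from different starts. The other gene of the list not called was Dnm3, with 20.0, 11.4 and 37.2 CPM in permissive samples, 1.68, 23.4 and 0.32 in nonpermissive samples and 2.81 and 0.571 in control samples (3.68, edgeR adjusted p = 0.103).

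Bdnf, the neurotrophin that hair cells supply to their neurons, had 3 domains, all at its annotated starts. It had 85.0, 109 and 82.9 CPM in permissive, 1.4, 10.8 and 7.36 in nonpermissive and 2.43 and 3.99 in control samples. Permissive samples did not overlap the others, and the log2 fold change over control was 4.85 ± 0.80 (edgeR adjusted p = 0.00141). ATAC peaks at these domains were present in nonpermissive and control libraries as well, so no permissive-only ATAC region was found there.

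The Notch ligands Dll1, Dll4 and Jag2, with which hair cells signal to supporting cells, and Mfng, a glycosyltransferase that modifies Notch receptors, each had a domain. All 4 were called higher in permissive than control cells by edgeR, as were 7 of 8 over the whole list and 5.72% of all genes tested. Against nonpermissive cells 2 of the 4 and 5 of the 8 were higher, where 6.78% of all genes tested were called higher. Dll1 had 103, 83.7 and 93.8 CPM in permissive, 6.7, 2.85 and 50.9 in nonpermissive and 0 in both control samples, at least 132-fold higher than control. Nonpermissive sample 3 stood apart from the other two: the log2 fold change over nonpermissive cells was 2.20 (edgeR adjusted p = 0.0923), 4.22 without that sample (0.00207) and 3.11 with the replicate number as a block (0.0107). At 24 h Dll1 had 95.0, 120 and 107 CPM with DAPT and 6.5, 8.62 and 10.7 with DMSO (3.64 ± 0.18, edgeR adjusted p = 3.94e-06).

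Jag2 had 459, 328 and 319 CPM in permissive, 40.8, 2.85 and 25.6 in nonpermissive and 5.98 and 16.5 in control samples (log2 fold change over control 5.04 ± 0.90, edgeR adjusted p = 0.00218). Mfng had 45.0, 56.2 and 45.3 CPM in permissive, 2.51, 7.99 and 8.64 in nonpermissive and 1.31 and 0.856 in control samples (5.42 ± 0.81, edgeR adjusted p = 0.000668). Permissive samples of both genes were above all others. Dll4 had 14.7, 7.7 and 10.1 CPM in permissive, 4.47, 0 and 6.08 in nonpermissive and 0.187 and 0.571 in control samples, and its call (edgeR adjusted p = 0.0347) was lost without either control sample or without permissive sample 1. None of the Notch pathway genes listed for supporting cells had a domain. Of those 14, 10 were lower and none higher in permissive than control cells, where 7.28% and 5.72% of all genes tested were called.

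Of 34 listed supporting cell genes, 16 were lower and none higher in permissive than control cells, where 7.28% and 5.72% of all genes tested were called. Of the 34, 3 had a domain: Prox1, Id2 and Bmp2. None of the 3 was called against control. Prox1, a homeodomain factor of supporting cells, had 242, 126 and 88.1 CPM in permissive, 269, 137 and 158 in nonpermissive and 418 and 239 in control samples (log2 fold change -1.11, edgeR adjusted p = 0.182). Bmp2 had 72.6, 22.4 and 39.6 CPM in permissive, 49.7, 16.0 and 32.0 in nonpermissive and 13.1 and 6.28 in control samples (2.20, adjusted p = 0.0530, or 2.13 and 0.0153 with the replicate number as a block), and was higher with DAPT at 24 h (1.35, edgeR adjusted p = 0.000626). Id2, an inhibitor of basic helix-loop-helix factors, had a log2 fold change of -0.54 (edgeR adjusted p = 0.535). Sox2, a factor of progenitors and supporting cells, had no domain, and had 52.4, 45.5 and 43.7 CPM in permissive, 69.2, 117 and 57.0 in nonpermissive and 172 and 84.7 in control samples (-1.44, edgeR adjusted p = 0.0602).

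Outside these lists, Grp, which encodes gastrin-releasing peptide, had 139, 237 and 294 CPM in permissive, 5.31, 2.85 and 25.6 in nonpermissive and 0.561 and 0.285 in control samples. At 24 h it had 90.3, 95.9 and 107 CPM with DAPT and 5.28, 5.05 and 5.7 with DMSO (log2 fold change 4.19 ± 0.12, edgeR adjusted p = 5.15e-07). Fam78b and Rtn4rl2, a member of the Nogo receptor family, each had 4 domains. Fam78b had 151, 77.7 and 70.8 CPM in permissive, 7.82, 7.42 and 32.3 in nonpermissive and 1.5 and 0 in control samples (6.84 ± 1.10 over control, edgeR adjusted p = 0.00111), and Rtn4rl2 was at 0 in both control samples and at least 14.5-fold higher in permissive cells.

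A domain did not go with higher RNA at every gene. Besides Ctbp2 and Zbtb38, Tbc1d22a and Atp9b, each linked to 3 domains, and Vwa8 and Txnl1, linked to 2 of the widest, were not called against control (edgeR log2 fold changes of -0.13, 0.53, -0.20 and 1.26, with adjusted p = 0.930, 0.636, 0.845 and 0.180), and Ccdc83, 4930563I02Rik and Kcne2, linked to domains of the highest fold, were not tested at 48 h because of low counts. Sh3pxd2b, which encodes a scaffold protein of podosomes, had 61.9, 37.2 and 67.5 CPM in permissive, 205, 107 and 217 in nonpermissive and 230 and 161 in control samples. Its permissive samples lay below all others, which the rule for naming it required. The log2 fold change over control was -1.81 ± 0.46 (edgeR adjusted p = 0.0176), although the call was lost without control sample 1 (0.129) or permissive sample 2 (0.0664).

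Fzd9, a Wnt receptor, had 309, 330 and 334 CPM with DAPT at 24 h and 1360, 1170 and 1220 with DMSO, a log2 fold change of -1.95 ± 0.10 (edgeR adjusted p = 3.96e-06), and at 48 h 110, 158 and 133 CPM in permissive, 50.5, 47.4 and 84.8 in nonpermissive and 195 and 306 in control samples. Emx2, a homeobox factor that orients hair bundles and has a domain at a start, had 55.4, 56.8 and 67.3 CPM with DAPT and 103, 104 and 98.2 with DMSO (-0.77 ± 0.10, edgeR adjusted p = 0.000548), and its 48 h change was not called (-0.63 over control, 0.534). Dpysl4 and Raver2 differed mainly in the nonpermissive cells. Dpysl4 had 137, 132 and 144 CPM in permissive, 11.4, 6.85 and 9.92 in nonpermissive and 52.0 and 102 in control samples, and Raver2 had 399, 576 and 570 CPM in permissive, 91.9, 116 and 128 in nonpermissive and 273 and 349 in control samples. In both, nonpermissive samples lay below every other sample, and the log2 fold change of permissive over nonpermissive was 3.85 (edgeR adjusted p = 0.000168) and 2.20 (0.00176). For Dpysl4 the gap between nonpermissive and control samples was required by the rule for naming it.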

How the data were processed

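RNA-seq, ATAC-seq and H3K27ac CUT&RUN libraries of mouse cochlear supporting cells were analysed from the files as deposited. The submitters' processing notes name STAR, RSEM, DESeq2, Bowtie2, MACS2 and UMI-tools and the build mm10, without versions. The RNA tables hold RSEM expected counts, deposited by the authors per gene, which were rounded to whole numbers here, and TPM values, also deposited by the authors, which were not used in any test. The peak files hold, in narrowPeak layout, the fold enrichment and the −log10 p and −log10 q of each peak as the authors' caller gave them for each library. Peaks are listed down to a −log10 q of 0.20 to 0.96 in the H3K27ac files. ATAC intervals with several summits were reduced to 1 interval.

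Peaks were merged at 1 bp overlap. Genes were linked to domains by the nearest start within 100 kb in RefSeq GRCm38.p6, the assembly of mm10, matching by symbol. That table gives only part of the starts, so 132 domains were linked through an end of the gene record. In the RNA tables, 48349 of 48709 IDs have a symbol. The genome sequence of mm10 was not used here, so promoter windows and microRNAs stand in for sequences at ATAC summits. RNA was tested with edgeR 4.0.16 (filterByExpr, TMM, quasi-likelihood, Benjamini-Hochberg over all genes tested, called under 0.05; limma 3.58.1, R 4.3.3), with 1 fit for all 48 h samples and 1 for the 24 h samples. DESeq2 1.42.0 was an alternative. The test was checked on simulated data. Lower bounds use a floor of 3 counts per library and cover counting error only.

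The genes named are linked genes of the lists, the 10 higher and 5 lower linked genes with the smallest adjusted p in a comparison, genes of the 10 widest and 10 strongest domains, genes with 3 or more domains, and Atoh1, Pou4f3, Gfi1, Barhl1, Lhx3, Myo7a and Sox2. The 10 and 5 were taken among called genes with a mean log2 CPM of at least 3 and groups that did not overlap. For genes named only that way, the lack of overlap in that comparison was therefore set by the choice. Not every one of them is described. The domains, lists and tests were chosen with earlier results of these data known. The main tests used no replicate block, and the replicate number was tried as a block. At 48 h, deviations from group means of same-numbered permissive and nonpermissive samples correlated at r = 0.58, 0.15 and 0.13 over 7484 genes. Among differently numbered samples, nonpermissive 3 with permissive 2 gave 0.19 and nonpermissive 2 with permissive 3 gave 0.14, and the rest were negative. Only number 1 therefore stood out as a pair. Same-numbered samples at 24 h did not correlate (0.01, -0.05 and -0.07 over 8980 genes).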

Additional observations from a re-analysis of the deposited data

How the results depend on the processing

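The number of domains, 694, changed with every choice that sets their extent: it was 1196 when peaks within 500 bp were merged, 1231 and 253 with a minimum width of 1500 and 3000 bp, 166 when only peaks with a −log10 q of at least 5 counted in every library and 75 when that held for the permissive libraries alone. Leaving out single libraries gave 0 to 1107. With lists cut to an equal 46148 peaks there were 779 domains, 577 of them shared. Chosen after seeing the data, q under 0.05 in every library gave 463. The difference in ATAC share kept its direction under all alternatives (51.0 to 65.2 percentage points). Domains with a permissive-only ATAC region numbered 206 of the 426 with q under 0.05 in permissive library 2, a choice made after seeing the data, against 334 of all 694.

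For RNA, counts of higher linked genes were 32 (permissive against control), 31 (permissive against nonpermissive) and 32 (24 h) for start domains only, which are fewer genes, and 108 at 24 h for links within 20 kb. The other counts that moved were small. Shares over all genes are given for the main fit only. Counts under another fit, here and with the replicate block below, therefore do not compare linked genes with genes in general. For permissive against control, lower linked genes numbered 6 with DESeq2, 5 with no filter and 2 with only the 2 groups compared. They numbered 0 within 20 kb and at starts, 8 with the gene that holds the domain (added after seeing the data), and 0 to 4 on leaving out single samples. For permissive against nonpermissive, lower linked genes numbered 1 within 20 kb, 0 at starts, 6 with the holding gene and 0 to 3 on leaving out samples. For nonpermissive against control, higher genes numbered 16 with DESeq2, 23 with no filter, 2 with 2 groups, 2 at starts and 0 to 5 without single samples, and lower genes 4, 6, 0 at starts, 0 with the holding gene, 0 with the q limit and 0 to 1 without single samples. At 24 h lower genes numbered 7 within 20 kb, 1 at starts, 27 with the holding gene and 11 to 20 without single samples. No direction reversed.

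With the replicate number as a block, 162 genes were higher and 3 lower for permissive against control, and 173 and 3 for permissive against nonpermissive; at 24 h, where the numbers do not pair samples, 155 and 16. Besides the genes given with both values above, the block added calls for Cdyl2 against control and for Cbfa2t2, Fzd9, Myo3b and Tmc1 against nonpermissive, and among the named genes changed no other at 48 h. Of the named genes called, 46 of 55 (permissive against control), 48 of 54 (permissive against nonpermissive) and 53 of 58 (24 h) were called under every alternative. The cause of the other shifts was not tested.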

Other observations

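Domains that fell inside coding genes were also counted by the gene that holds them: 367 coding genes held 435 domains, whatever gene had the nearest start. Genes holding 3 or more were picked for that count after their values were seen. Dscaml1, a neural adhesion molecule, held the most, 6 domains with a summed width of 19702 bp, and had 107, 25.1 and 44.5 CPM in permissive, 0.558, 0 and 0 in nonpermissive and 0.374 and 0 in control samples (edgeR adjusted p = 0.000781 against control). Thsd7b, which holds 3 domains including the widest, had 325, 136 and 218 CPM in permissive, 9.49, 5.14 and 7.04 in nonpermissive and 1.5 and 3.99 in control samples (log2 fold change over control 6.39 ± 0.71, edgeR adjusted p = 0.000111). Zmat4, with 3, had 112, 150 and 120 CPM in permissive, 17.0, 5.71 and 3.84 in nonpermissive and 8.42 and 4.56 in control samples (4.27 ± 0.72, edgeR adjusted p = 0.00149). In these 3 genes every permissive sample was above every other sample.

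Other genes holding several domains were not called against control. Ttc7b, with 4 domains, had 22.3, 21.8 and 9.3 CPM in permissive, 20.1, 12.6 and 18.6 in nonpermissive and 13.5 and 14.8 in control samples (0.33, edgeR adjusted p = 0.797). Ctnnd2, an adherens junction protein of the delta-catenin family, held 3 domains, each with a permissive-only ATAC region, and had 421, 196 and 135 CPM in permissive, 117, 57.1 and 101 in nonpermissive and 175 and 99.9 in control samples (0.87, edgeR adjusted p = 0.356). Cntnap2 held 3 and had 7.63, 3.01 and 4.04 CPM in permissive, 12.8, 22.8 and 28.8 in nonpermissive and 16.1 and 2.57 in control samples (-0.92, edgeR adjusted p = 0.528).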
